A study of Mus musculus with 9 samples.

Results

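The 5 genes described here are the adult haemoglobin genes Hba-a1, Hba-a2, Hbb-bs and Hbb-bt, together with Alas2. They were taken by symbol from the 26602 genes with a count in any library, and they were chosen from earlier results of the same libraries, so their genotype values are a description and carry no test. Each was counted in midbrain tissue containing the substantia nigra pars compacta from 4 DJ-1+/+ mice and, at the same age of 3 to 4 months, 5 DJ-1-/- mice, with 1 library each. The DJ-1-/- mice lack both working copies of the gene for DJ-1 (Park7) in all cells. The line had been backcrossed to C57BL/6 for 7 generations, and both genotypes were bred from heterozygous mothers and shared cages. No mouse of either group was treated. The mice were killed with CO2 and isoflurane and the tissue was snap frozen. Perfusion of the brain before dissection is not mentioned in the methods, so the tissue may hold the blood that was in its vessels.

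Haemoglobin carries oxygen in red blood cells as a tetramer of alpha and beta chains, each holding a haem group. Hba-a1 and Hba-a2 encode the adult alpha chain, while Hbb-bs and Hbb-bt encode the adult beta chains of the haplotype that C57BL/6 mice carry. Alas2 is the erythroid form of 5-aminolevulinate synthase, which catalyses the first step of haem synthesis in red cell precursors. Young red cells, the reticulocytes, have lost their nucleus but still hold globin mRNA, and globin transcripts in bulk brain RNA are usually read as blood in the sample. Low haemoglobin expression has also been described in neurons, including dopaminergic neurons. In a bulk sample, fewer cells of a type and less RNA per cell cannot be told apart.

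The alpha genes lie side by side on chromosome 11 (GRCm38, Hba-a1 at 32283511 to 32284465 and Hba-a2 at 32296489 to 32297298, both on the plus strand). The beta genes lie on the minus strand of chromosome 7 (Hbb-bs at 103826534 to 103828096 and Hbb-bt at 103812524 to 103813996), and Alas2 lies on the plus strand of chromosome X at 150547375 to 150570638. The 150 bases before the RefSeq start site of each gene (GRCm38.p6) are shown because they let the near identity of the alpha genes be seen beside their different counts. Capitals mark the letters CCAAT and the letters CACCC (promoter boxes), the TATA box letters ATATAA or the motif GATAA of GATA factors, on either strand, with overlapping matches merged. The gene models of GENCODE begin further upstream for some of these genes.
Hba-a1 (chr11:32283522-32283671, plus strand): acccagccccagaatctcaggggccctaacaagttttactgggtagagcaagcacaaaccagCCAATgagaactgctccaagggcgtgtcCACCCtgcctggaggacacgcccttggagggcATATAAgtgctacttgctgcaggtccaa
Hba-a2 (chr11:32296342-32296491, plus strand): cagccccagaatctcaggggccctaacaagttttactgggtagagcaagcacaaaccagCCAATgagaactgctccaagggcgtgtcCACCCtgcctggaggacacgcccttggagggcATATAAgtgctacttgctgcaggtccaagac
Hbb-bs (chr7:103827929-103828078, minus strand): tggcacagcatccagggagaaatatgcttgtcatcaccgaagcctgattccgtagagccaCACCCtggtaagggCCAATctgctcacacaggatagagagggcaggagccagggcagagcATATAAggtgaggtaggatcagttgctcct
Hbb-bt (chr7:103813924-103814073, minus strand): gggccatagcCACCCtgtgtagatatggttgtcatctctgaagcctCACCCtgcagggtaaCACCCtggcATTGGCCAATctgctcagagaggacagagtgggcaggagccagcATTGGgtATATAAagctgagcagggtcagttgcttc
Alas2 (chrX:150547267-150547416, plus strand): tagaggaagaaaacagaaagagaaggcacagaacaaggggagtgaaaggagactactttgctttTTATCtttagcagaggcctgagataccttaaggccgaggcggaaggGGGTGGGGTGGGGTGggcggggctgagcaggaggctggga

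All 4 globin windows held CCAAT along with CACCC, and all held ATATAA, which started 28 to 31 bases before the start site. The Alas2 window held GATAA on the opposite strand, 86 bases before the start, and CACCC on the opposite strand, but neither CCAAT nor the TATA box letters. Among the same windows of 32851 RefSeq promoters, 24.5% held CCAAT, 37.4% held CACCC, 5.35% held ATATAA and 13.3% held GATAA. A match of letters is a description and not a binding site. The windows of Hba-a1 and Hba-a2 were offset by 3 bases and identical over the 147 bases they shared, whereas those of Hbb-bs and Hbb-bt had 43 mismatches in 149 aligned bases.

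The transcripts of a pair were just as unequally alike, which bears on how reads can be assigned. The main GENCODE transcripts of Hba-a1 and Hba-a2 differed at 1 of 538 aligned bases, 123 bases from the 3′ end of the Hba-a1 model, and the Hba-a2 model ran on for 16 more bases at its 3′ end. Those of Hbb-bs and Hbb-bt were 92.7% identical, with 46 mismatches in 626 aligned bases. The libraries were 3′ tag libraries, which read near the end of the transcript, and the handling of reads that map to both alpha genes is not given in the sources used here. The split of counts between Hba-a1 and Hba-a2 is therefore uncertain.

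Counts are of unique molecular identifiers, and levels are given as cpm, the count over the library total times 1000000. The 4 DJ-1+/+ totals lay at 841974 to 886085 and the 5 DJ-1-/- totals at 967751 to 1098125, so depth and genotype cannot be told apart. Park7, the targeted gene, averaged 135 ± 15.7 cpm (SD, n = 4) in DJ-1+/+ against 20.4 ± 4.54 cpm (SD, n = 5) in DJ-1-/- libraries, with a log2 fold change of -2.71 ± 0.15 (SE) and an adjusted p of 7.44e-08 by edgeR. It was the single gene of 18127 tested that passed an adjusted p of 0.05 (0.00552%). Of the 9 libraries, 3 (DJ-1+/+ replicates 1 and 4, with DJ-1-/- replicate 5) had 113 to 152 counts of the Y-linked gene Ddx3y and at most 2 of Xist. The other libraries had 146 to 193 counts of Xist and at most 4 of Ddx3y.

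The 4 globin genes together made up 0.0375% to 0.0647% of all counts. The highest count of any gene in a library was only 1040 to 1359. Whether this narrow range lowered the globin share or its spread between libraries was not tested. In DJ-1+/+ replicates 1 to 4 they summed to 443, 569, 447 and 375 counts, and in DJ-1-/- replicates 1 to 5 to 415, 552, 364, 493 and 471. The DJ-1+/+ mean was 529 ± 91.5 cpm (SD, n = 4), against 452 ± 57.2 cpm (SD, n = 5) for DJ-1-/-. DJ-1+/+ replicate 2 was the highest at 647 cpm and DJ-1-/- replicate 3 the lowest at 375 cpm, and the genotypes overlapped. The difference of mean log2 cpm was -0.22 for DJ-1-/- minus DJ-1+/+, beside a pooled SD within genotype of 0.22 on the same scale. Omitting single libraries moved it to between -0.32 and -0.12, the value nearest 0 coming without DJ-1+/+ replicate 2. Hba-a2, whose counts are described in a later paragraph, made up -39.7 cpm of the -76.6 cpm between the means. Without it the other 3 globin genes summed to 468 ± 61.9 cpm (SD, n = 4) for DJ-1+/+, against 431 ± 58.5 cpm (SD, n = 5), a difference of mean log2 cpm of -0.12 (added after the values were seen).

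**Figure D1:**
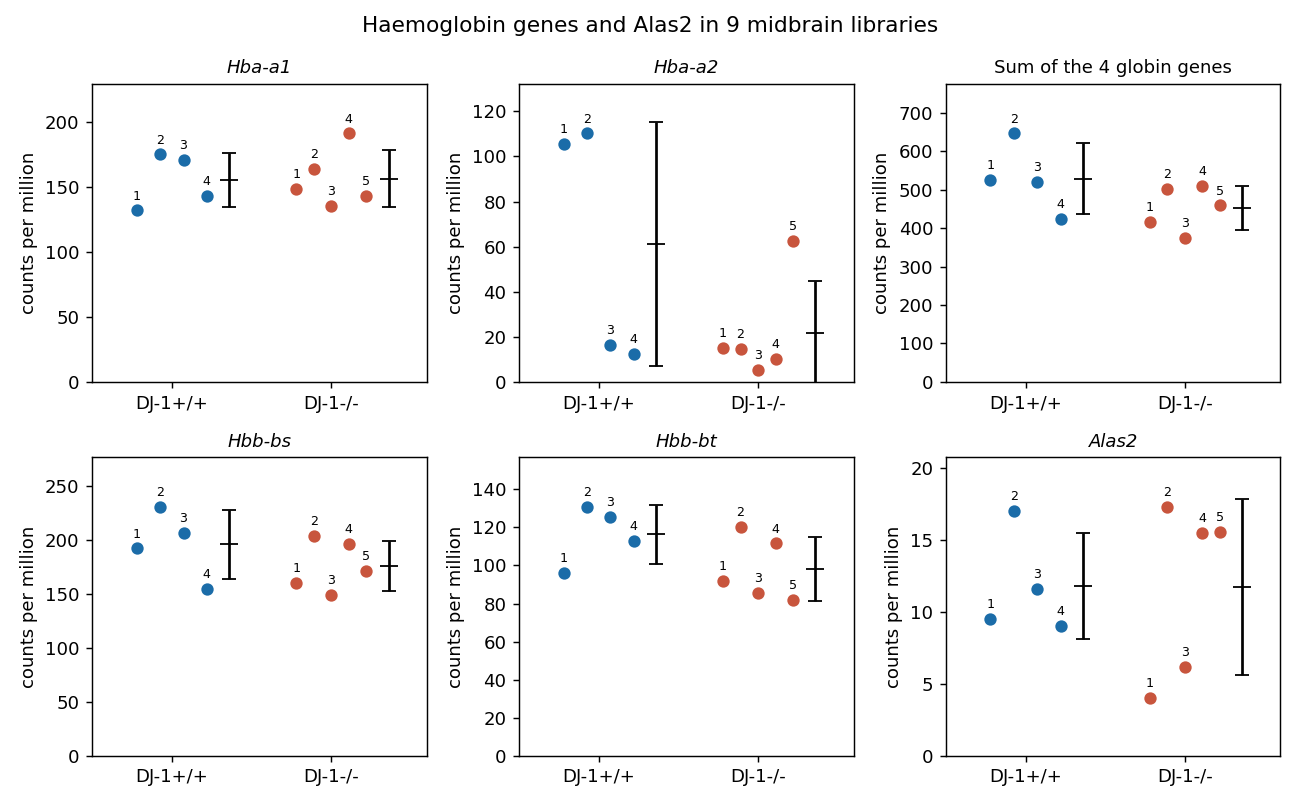
Level in cpm (vertical axes) of each of the 5 genes and of the sum of the 4 globin genes in DJ-1+/+ (blue, n = 4) and DJ-1-/- (red, n = 5) libraries. Numbers are replicate numbers, and black bars give the mean ± SD (cut off at 0 for Hba-a2). The genotypes overlap in every panel, and Hba-a2 is above 60 cpm in DJ-1+/+ replicates 1 and 2 as in DJ-1-/- replicate 5, and below 20 cpm in the other 6 libraries.

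Hba-a1 had 111, 154, 147 and 127 counts in DJ-1+/+ replicates 1 to 4 and 148, 180, 131, 185 and 147 in DJ-1-/- replicates 1 to 5. Its mean was 155 ± 21.1 cpm (SD, n = 4) for DJ-1+/+, against 156 ± 22.1 cpm (SD, n = 5), a log2 fold change of 0.01 ± 0.11 (SE, edgeR). DJ-1-/- replicate 4 was the highest at 191 cpm and DJ-1+/+ replicate 1 the lowest at 132 cpm, so the highest was 1.45 times the lowest.

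Hba-a2, the neighbouring alpha gene, behaved otherwise. It had 89, 97, 14 and 11 counts in DJ-1+/+ replicates 1 to 4 and 15, 16, 5, 10 and 64 in DJ-1-/- replicates 1 to 5. The counts fell into a high set of 3 libraries (62.4 to 110 cpm) and a low set of 6 (5.16 to 16.3 cpm), and both genotypes had libraries in each. The DJ-1+/+ mean was 61.2 ± 54.1 cpm (SD, n = 4), against 21.5 ± 23.2 cpm (SD, n = 5), so each SD was about as large as its mean, and the log2 fold change was -1.48 ± 0.63 (SE, edgeR). That value was -2.41 without DJ-1-/- replicate 5 and -1.04 without DJ-1+/+ replicate 2, and so rested on which of the high libraries were counted. Of the 3 high libraries, DJ-1+/+ replicate 1 and DJ-1-/- replicate 5 had Y-linked counts, and DJ-1+/+ replicate 2 lacked them. DJ-1+/+ replicate 4 had them and was low. A relation to sex was not tested.

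Hbb-bs had 162, 203, 178 and 137 counts in DJ-1+/+ replicates 1 to 4 and 160, 224, 145, 190 and 176 in DJ-1-/- replicates 1 to 5. In cpm it was 196 ± 31.9 (SD, n = 4) and 176 ± 23.3 (SD, n = 5), a log2 fold change of -0.15 ± 0.11 (SE, edgeR). The highest library, DJ-1+/+ replicate 2 at 231 cpm, and the lowest, DJ-1-/- replicate 3 at 150 cpm, were those that were highest and lowest for the sum.

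Hbb-bt had 81, 115, 108 and 100 counts in DJ-1+/+ replicates 1 to 4 and 92, 132, 83, 108 and 84 in DJ-1-/- replicates 1 to 5. In cpm it was 116 ± 15.4 (SD, n = 4) and 98.3 ± 16.8 (SD, n = 5), a log2 fold change of -0.24 ± 0.12 (SE, edgeR). DJ-1+/+ replicate 2 was again the highest at 131 cpm, while the lowest was DJ-1-/- replicate 5 at 81.9 cpm.

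Alas2 was near the limit of these libraries. It had 8, 15, 10 and 8 counts in DJ-1+/+ replicates 1 to 4 and 4, 19, 6, 15 and 16 in DJ-1-/- replicates 1 to 5, or 11.8 ± 3.68 cpm (SD, n = 4), against 11.7 ± 6.14 cpm (SD, n = 5). The log2 fold change was -0.00 ± 0.41 (SE, edgeR). Replicate 2 was the highest library of each genotype for Alas2, and it was also the highest of each genotype for Hbb-bs and Hbb-bt. Per 100 counts of the 4 globin genes, Alas2 gave 2.20 ± 0.34 (SD, n = 4) in DJ-1+/+ and 2.50 ± 1.13 (SD, n = 5) in DJ-1-/- libraries, from 0.964 in DJ-1-/- replicate 1 to 3.44 in DJ-1-/- replicate 2.

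All 5 genes passed the filter of 10 counts over the 9 libraries. At an adjusted p of 0.05, 0 of the 5 were called by edgeR and 0 by DESeq2, and 1 (Hba-a2) had an unadjusted edgeR p under 0.05, beside 2.82% of all genes tested. None of the 5 had levels without overlap between the genotypes, beside 1.25% of all genes tested. The genes were chosen on this contrast, so nothing is read from these counts.

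The shares within the globin counts do not depend on the library total, and they set Hba-a2 apart from the other genes. Hba-a2 was 44.5% of alpha globin counts in DJ-1+/+ replicate 1 (95% Wilson interval 37.8 to 51.4), 38.6% in DJ-1+/+ replicate 2 (32.8 to 44.8) and 30.3% in DJ-1-/- replicate 5 (24.5 to 36.8). In the other 6 libraries it was between 3.68% and 9.20%, and the highest upper bound among them was 14.6%. Intervals cover counting error only. The intervals of the high and low sets did not overlap, but the sets were drawn from these same counts, so this is a description.

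The share of Hbb-bt in beta globin counts was far steadier. It was 37.4% ± 3.70 (SD, n = 4) in DJ-1+/+ and 35.7% ± 1.93 (SD, n = 5) in DJ-1-/- libraries. The lowest was 32.3% in DJ-1-/- replicate 5 (26.9 to 38.2) and the highest 42.2% in DJ-1+/+ replicate 4 (36.1 to 48.6), and even these intervals overlapped.

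Both alpha genes together were 45.1%, 44.1% and 44.8% of the 4 globin genes' counts in the 3 libraries with high Hba-a2, and 35.5% to 39.6% in the other 6. With Hba-a2 left out, Hba-a1 was 33.2% ± 1.54 (SD, n = 4) of the counts of Hba-a1, Hbb-bs and Hbb-bt in DJ-1+/+ and 36.3% ± 1.73 (SD, n = 5) in DJ-1-/- libraries. It was 31.4%, 32.6% and 36.1% in the 3 libraries with high Hba-a2 and 33.6% to 38.3% in the other 6. The Hba-a1 share in DJ-1-/- replicate 5 thus lay within the range of the other 6 libraries, and those of DJ-1+/+ replicates 1 and 2 lay just under it.

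**Figure D2:**
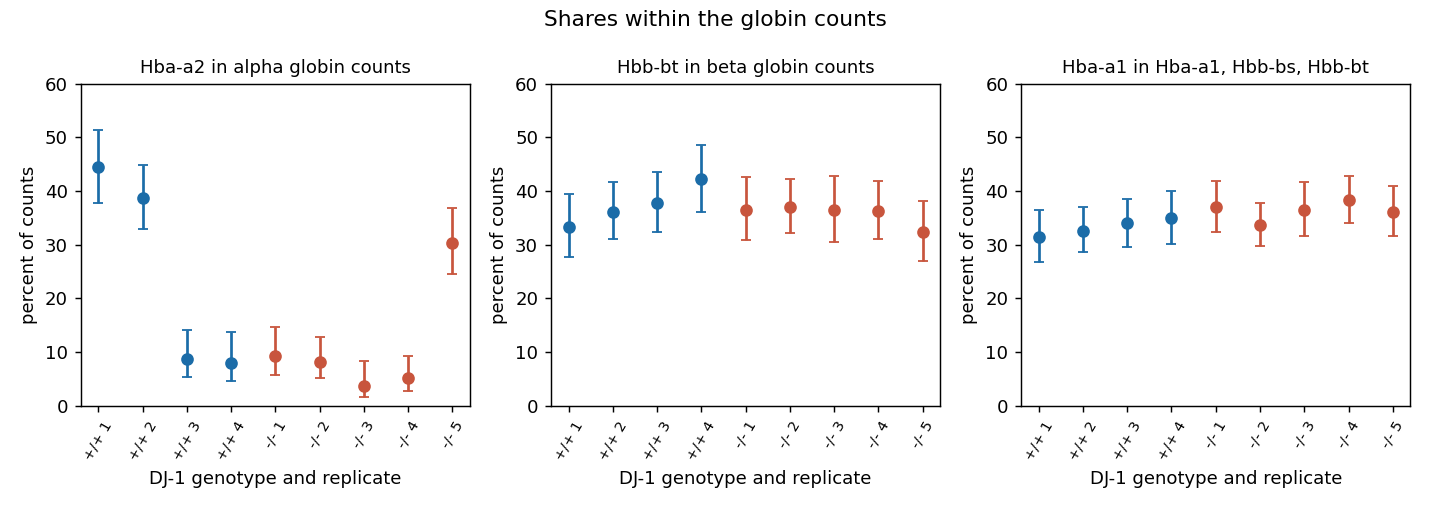
Percent of counts (vertical axes) that Hba-a2 took of both alpha genes, Hbb-bt of both beta genes, and Hba-a1 of Hba-a1, Hbb-bs and Hbb-bt, for each DJ-1+/+ (blue) and DJ-1-/- (red) library. Bars are 95% Wilson intervals. The Hba-a2 share is 30.3% to 44.5% in 3 libraries and 3.68% to 9.20% in 6, whereas the other shares stay between 31.4% and 42.2%.

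The globin genes varied between mice of 1 genotype more than most genes of like abundance. The spread was measured as a chi-square of the counts against the library totals within each genotype, divided by its degrees of freedom, which is near 1 where counting error alone acts. It was 2.80 for Hba-a1, 3.74 for Hbb-bs and 2.44 for Hbb-bt, beside a median of 0.923 over the 3034 genes with a mean of 100 to 200 counts. Of those genes, 3.30% exceeded Hbb-bs, 5.80% exceeded Hba-a1 and 8.01% exceeded Hbb-bt. Alas2 had 2.27, which 711 of the 3558 genes with a mean of 5 to 20 counts exceeded. Hba-a2 had 32.3, beside a median of 1.24 over the 3447 genes with a mean of 20 to 50 counts, and ranked 36th of 18127 genes tested.

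**Figure D3:**
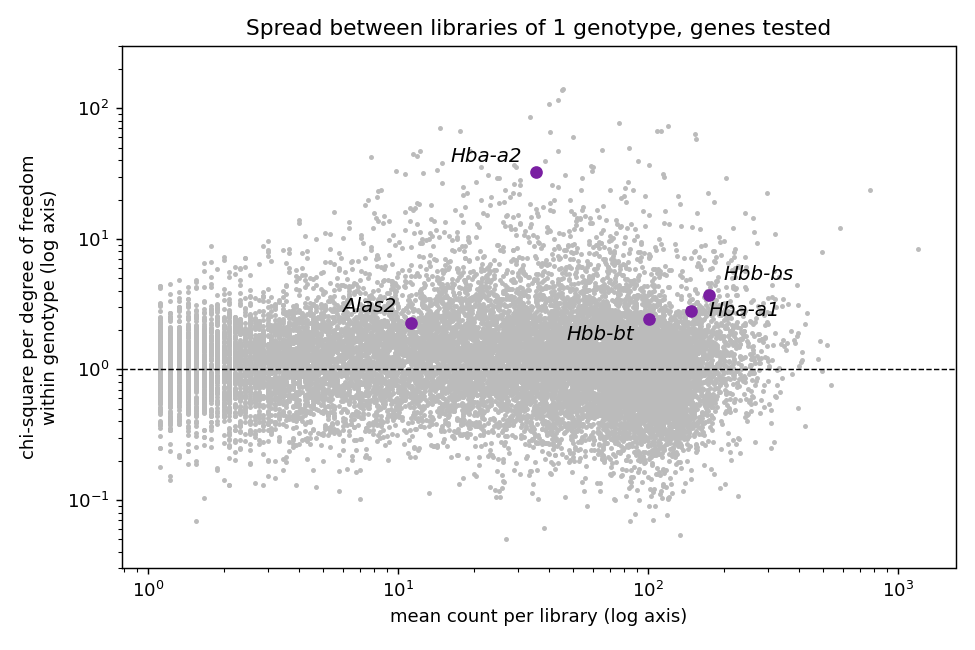
Spread within genotype (vertical log axis, chi-square per degree of freedom) against the mean count per library (horizontal log axis) for the genes tested (grey) and the 5 genes named (purple). The dashed line at 1 is where counting error alone would place a gene, and Hba-a2 at 32.3 stands far above the other 4 at 2.27 to 3.74.

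The spread of Hba-a2 was not seen in the genes around it. The 8 tested genes nearest to it on chromosome 11, Hba-a1 among them and all starting within 226 kb, had a spread of 0.514 to 2.80. They include Nprl3, whose introns hold the enhancers of the alpha globin cluster, with 17 to 30 counts per library, and the neighbours Mpg (53 to 75 counts) and Snrnp25 (64 to 103 counts). Others were low, such as Ubtd2 (0 to 3 counts) and Efcab9 (2 to 8 counts). At such counts a like difference between libraries would give a smaller spread. Hba-a2 ranked 6th by spread among 1314 tested genes of chromosome 11. The 5 above it were Gh, Hcrt, Ramp3, Gabra6 and Slc6a4, listed after the values were seen. They encode growth hormone, the hypothalamic peptide orexin, a receptor partner, a GABA receptor subunit typical of cerebellar granule cells and the serotonin transporter. Gabra6 had 102 counts in DJ-1+/+ replicate 1 and at most 2 in any other library.

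Many genes that mark red cells and their precursors were at or near 0. The erythroid list held 27 genes, of which 12 passed the filter, and 16 never exceeded 3 counts in any library. Among 15 genes of the list that are typical of the red cell lineage, set apart after the values were seen, 7 had no count in any library: Ahsp (the alpha globin chaperone), Gata1 and Nfe2 (erythroid transcription factors), Rhag, Trim10, Kel and Cldn13. A count of 0 allows up to 3 counts, or 2.73 to 3.56 cpm, in a library. The other 8, among them Slc4a1 (the anion exchanger band 3) and Klf1 (an erythroid transcription factor), had at most 3 counts in any library and 0 to 6 together. Other red cell genes of the list did have counts: Rhd, a blood group antigen, had 1 to 7 per library, Epor, the erythropoietin receptor, had 3 to 13, and Tspo2 had 0 to 3. The embryonic and minor globins were low too, with 5 of 8 uncounted (Hba-x, Hbb-bh0, Hbb-bh1, Hbb-bh2 and Hbb-bh3) and the sum of Hbb-y, Hbq1a and Hbq1b at 0 to 2.38 cpm.

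The erythroid list genes with high counts are ones that brain cells also use. Mkrn1, Ank1 (ankyrin) and Tfrc (the transferrin receptor) were its 3 highest, at 130 ± 10.3, 126 ± 9.90 and 124 ± 14.6 cpm in DJ-1-/- libraries (SD, n = 5). Their log2 fold changes were -0.02 ± 0.08, -0.02 ± 0.11 and -0.01 ± 0.11 (SE, edgeR). The median log2 fold change of the 12 tested was -0.02, beside 0.01 over all genes tested, and 0 of the 12 passed the adjusted threshold. Only Tal1, a transcription factor of blood precursors that some midbrain neurons also use, had an unadjusted p under 0.05, with a log2 fold change of 0.40 ± 0.19 (SE).

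Enzymes and carriers of haem synthesis outside the red cell were measured well and did not pass the test either. All 12 passed the filter, 7 with a positive and 5 with a negative log2 fold change, a median of 0.02 and 0 called (0 also at an unadjusted p under 0.05). Cpox, a late enzyme of the pathway, averaged 141 ± 11.1 cpm (SD, n = 4) in DJ-1+/+, against 140 ± 7.89 cpm (SD, n = 5). Tmem14c, a porphyrin carrier, had the same mean in both genotypes, 122 cpm. Ppox, the enzyme after Cpox, had the highest log2 fold change of the list, 0.40 ± 0.26 (SE, edgeR).

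Of 8 genes that clear haemoglobin or haem, 6 passed the filter and 0 were called, with a median log2 fold change of -0.01. Haptoglobin (Hp) and haemopexin (Hpx), which bind free haemoglobin and haem in plasma, had 9 and 3 counts over the 9 libraries together. Cd163, the haptoglobin receptor of perivascular macrophages, had 0 to 8 counts per library. Hmox1, the inducible haem oxygenase, had 7 to 14 counts in 8 libraries and 1 in DJ-1-/- replicate 5, whereas Hmox2, the constitutive form, averaged 138 ± 4.85 cpm (SD, n = 4) in DJ-1+/+ mice, against 146 ± 7.17 cpm (SD, n = 5).

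Other blood cells left few counts. The 17 neutrophil and monocyte genes summed to 7.80 to 42.3 cpm, with S100a8 at 0 to 9 counts per library, and the 10 platelet genes to 22.6 to 44.4 cpm, with Pf4 at 5 to 13 counts. The 14 lymphocyte genes summed to 33.9 to 114.7 cpm, led by Ighm (12 to 63 counts) and Trac (12 to 27 counts), and Igkc had 32 counts in DJ-1-/- replicate 4 and at most 10 elsewhere. In these lists 5, 5 and 4 genes passed the filter, with median log2 fold changes of 0.23, -0.04 and 0.54, and 0 were called (0 also at an unadjusted p under 0.05). With so few genes these medians moved with single libraries. That of the lymphocyte list was 0.24 without DJ-1+/+ replicate 4, 0.35 without DJ-1+/+ replicate 2 and 0.30 without DJ-1-/- replicate 4. That of the neutrophil and monocyte list was -0.06 without DJ-1-/- replicate 3, 0.06 without DJ-1+/+ replicate 4, and 0.47 and 0.53 without DJ-1-/- replicates 4 and 5. That of the platelet list ran from -0.24 (without DJ-1-/- replicate 3) to 0.19 (without DJ-1+/+ replicate 2). Cd3g, Cd79a, Cxcr2, Ly6g, Gp1ba, Gp6 and Tubb1, markers of T cells, B cells, neutrophils and platelets, had no count.

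The 20 endothelial genes, all tested, summed to between 1164 and 1426 cpm in every library, with a DJ-1+/+ mean of 1244 ± 123 (SD, n = 4) against 1268 ± 87.3 (SD, n = 5), and a median log2 fold change of -0.00. The 11 pericyte and smooth muscle genes summed to 368 to 457 cpm, with a median of 0.04. The 10 meningeal and fibroblast genes, 9 of them tested, had a median of -0.05 and the 12 microglia genes a median of 0.07. In these 4 lists 0 genes were called, and 1, the smooth muscle gene Tagln (10.4 cpm against 5.21 cpm in DJ-1-/- libraries), had an unadjusted p under 0.05.

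Genes of neighbouring tissue and of neurons also differed between libraries. All 12 choroid plexus genes had a negative log2 fold change, with a median of -1.49, 6 at an unadjusted p under 0.05 and 0 called. The list summed to 951 cpm in DJ-1+/+ replicate 4 and 168 to 417 cpm in the other 8, and without that library the median was -0.19. Of the 16 dopaminergic neuron genes 15 had a positive log2 fold change, with a median of 0.41 (0.20 without DJ-1+/+ replicate 4), 6 at an unadjusted p under 0.05 and 0 called. They summed to 938 ± 266 cpm (SD, n = 4) in DJ-1+/+ libraries, against 1185 ± 155 cpm (SD, n = 5). Over all genes tested, 2.82% had an unadjusted edgeR p under 0.05. Genes of the same list may vary together between libraries, so the counts of list genes are a description.

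The relation of summed haemoglobin to each of the 13 lists and to the library total was computed over the 9 libraries, as Pearson's r and Spearman's rho of log2(cpm + 1), with exact two-sided permutation p-values adjusted over the 14 relations. None passed. The embryonic and minor globins had the highest r, 0.74 (exact permutation p = 0.0197, adjusted 0.276; rho 0.74, adjusted 0.420), but that list holds 0 to 2 counts per library, below the floor of 3. The library total had r = -0.35 (exact permutation p = 0.354, adjusted 0.905) and rho = -0.62 (p = 0.0857, adjusted 0.600). Endothelial genes had r = -0.21 (exact permutation p = 0.576, adjusted 0.905) and rho = -0.20 (p = 0.613, adjusted 0.867). Lymphocyte genes had r = 0.02 (exact permutation p = 0.968, adjusted 0.974) and rho = -0.02 (p = 0.982, adjusted 0.982).

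Dopaminergic neuron genes had r = 0.24 (exact permutation p = 0.529, adjusted 0.905) and rho = 0.22 (p = 0.581, adjusted 0.867). With each genotype centred on its own mean, which was added after the values were seen, their r was 0.74. Its permutation p was 0.0226 (adjusted 0.158). Centred values were shuffled across both genotypes, so this p is not exact and may be too small. The centred r was 0.79 for the embryonic and minor globins and -0.57 for the choroid plexus genes. Without centring, the remaining 9 lists had r between -0.47 for haem synthesis enzymes (exact permutation p = 0.208, adjusted 0.905; rho -0.52, p = 0.162, adjusted 0.744) and 0.18 for meningeal and fibroblast genes (p = 0.642, adjusted 0.905; rho 0.15, p = 0.708, adjusted 0.867). Without the 2 libraries farthest from the median of summed haemoglobin, DJ-1+/+ replicate 2 and DJ-1-/- replicate 3, r was 0.62 for the embryonic globins, 0.26 for dopaminergic neuron genes, 0.06 for endothelial genes, 0.37 for lymphocyte genes and -0.22 for the library total. The largest in size was that of the haem synthesis enzymes, -0.72 (exact permutation p = 0.0770, unadjusted), and that of the erythroid list was 0.44 (exact permutation p = 0.310, unadjusted), up from 0.07 over the 9 libraries. With 9 libraries a weak relation was not detectable.

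**Figure D4:**
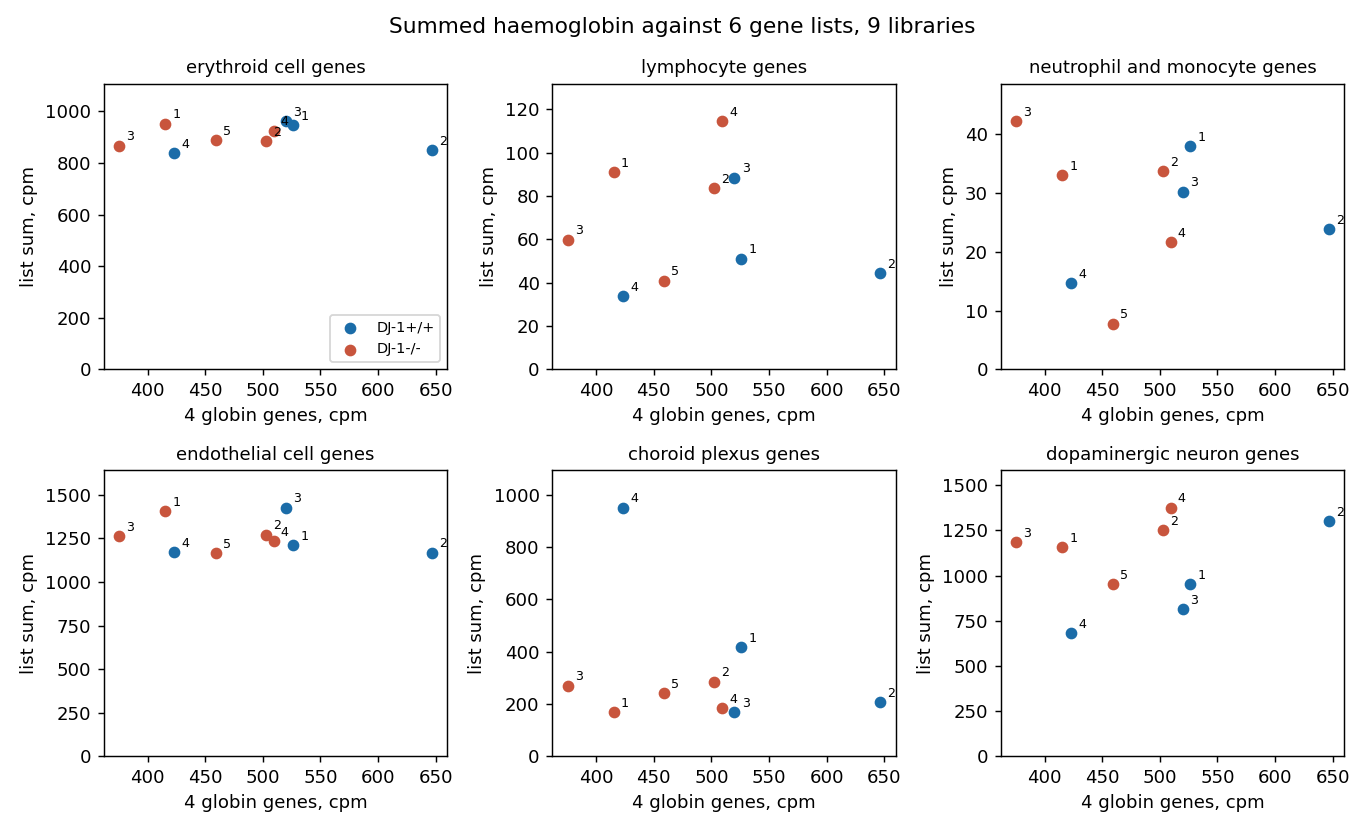
Summed cpm of 6 gene lists (vertical axes) against the summed cpm of the 4 globin genes (horizontal axes) in DJ-1+/+ (blue) and DJ-1-/- (red) libraries, with replicate numbers. No list follows haemoglobin steadily over the 9 libraries pooled. The dopaminergic neuron genes rise with it among the 4 DJ-1+/+ libraries. Among the DJ-1-/- libraries they do not rise steadily, and replicate 5 is the lowest of these at 952 cpm. DJ-1+/+ replicate 4 stands apart at 951 cpm for the choroid plexus genes.

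The gene patterns most like that of summed haemoglobin were ranked by Pearson's r of log2(cpm + 1) over the 9 libraries, among 12741 genes with a mean of at least 10 cpm. Among the 8 highest were Immt (0.97), Hbb-bs (0.96, itself part of the sum), Ccdc82 (0.92), Adam10 (0.90), Naa35 (0.90), Ovgp1 (0.90) and Nat8 (0.89). The 3 lowest were Shd (-0.93), Mbd2 (-0.92) and Wdr89 (-0.92). Immt, which organises mitochondrial cristae, ran only from 120 to 158 counts per library. The ranking is a description. The other members had r of 0.59 (Hba-a1), 0.69 (Hba-a2), 0.69 (Hbb-bt) and 0.71 (Alas2), and the globins are part of the sum.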

How the data were processed

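Midbrain libraries of 4 DJ-1+/+ and 5 DJ-1-/- mice were made with a 3′ mRNA kit from 100 ng of total RNA, and the authors deposited UMI counts per Ensembl gene, whole numbers without normalization. Per the submitters' processing notes, GRCm38, fastp 0.20.0, STAR 2.7.3a, featureCounts 2.0.0 and UMI-tools 1.0.0 were used. Their settings for reads that map to several genes or strands are not given in the sources used here.

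The 9 sets of counts were joined, a gene not listed in a library was given 0, and 26570 of 26602 identifiers had a symbol. Genes with at least 10 counts in all (18127) were tested with edgeR 4.0.16 (quasi-likelihood, TMM, Benjamini-Hochberg) in R 4.3.3, with genotype as the only term. The standard error is the log2 fold change over the root of F. The script was tested on simulated data: of 17797 genes, 200 had a log2 change of 1.5, and the genotype comparison recovered 199. It also called 10 unchanged genes. The changed genes were all simulated at levels above that of Alas2, with 1 dispersion for every gene. The recovery therefore does not extend to Alas2 or to the widely spread Hba-a2. Shares have 95% Wilson intervals, and relations have permutation tests in scipy 1.17.1, exact except for the genotype-centred values. Positions are from GENCODE M21, and promoter sequences from RefSeq (GRCm38.p6), which held all 5 genes.

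The members, the 13 gene lists and the tests were chosen with earlier results of these data known. The genes named are the members, Park7, Xist, Ddx3y, and, of each list, those among its 3 highest means and 2 largest and smallest log2 fold changes. Genes among the 8 most like and the 3 least like summed haemoglobin are also named. Some genes that this rule picks are not reported here. Markers at or near 0 and the genes of chromosome 11 were named once their values were known. Separate mice were sequenced, each once. Alternatives were DESeq2 1.42.0, RLE size factors, library totals, other filters, thinning to the smallest total, a term for Xist or for the replicate number, and omission of single libraries. The highest count of any gene in a library was 1040 to 1359, and the effect of this narrow range on the globin counts was not tested.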

Additional observations from a re-analysis of the deposited data

Results flagged for a closer look

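Of 48 sets of 4 or 5 libraries of 1 genotype examined, 4 held a library far from the others, where about 1 in 20 is flagged by chance. DJ-1-/- replicate 5 was far above the other DJ-1-/- libraries for Hba-a2 (62.4 cpm) and for its share of alpha globin counts (30.3%), 2 measures of the same counts. The same library was below the others in the share of Hbb-bt in beta globin counts (32.3%), although its interval overlapped theirs. DJ-1+/+ replicate 3 was above the other DJ-1+/+ libraries in the summed endothelial genes (1426 cpm).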

How the results depend on the processing

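The number of genes with an adjusted p under 0.05 was 1 of 18127 in the reported comparison and 1 to 2 with each library left out. It was 36 of the 26602 genes with a count without the filter on low counts, and 8 of 18127 with the replicate number as a block. Hba-a2 was among the 36 and among the 8, with log2 fold changes between -2.29 (with the replicate block) and -1.30 over the settings that kept all libraries. Hba-a2 was chosen on this contrast, and its difference rested on which high libraries were counted, so nothing is read from these calls. Same-numbered mice were not paired, since their deviations correlated at 0.157, -0.0112, -0.0743 and -0.0878. With the replicate block, summed haemoglobin differed by -0.23 on the log2 scale. It was -0.12 without Hba-a2, and over 16 alternatives the difference kept its sign. Hbb-bs (-0.25 to -0.07), Hbb-bt (-0.33 to -0.19) and Hba-a2 (-2.41 to -1.04) kept theirs with each library left out, whereas Hba-a1 (-0.08 to 0.06) and Alas2 (-0.19 to 0.22) did not. The median of the choroid plexus list ran from -1.82 to -0.19 and that of the pericyte and smooth muscle list from -0.028 to 0.16 (0.16 without DJ-1+/+ replicate 2). Among the other lists, the median kept its sign with each library left out for dopaminergic neuron (0.63 with the replicate block), lymphocyte and microglia genes, and changed it at least once for the remaining ones. The r of summed haemoglobin to the embryonic globins ran from 0.66 to 0.89, with an adjusted p of 0.0188 (exact permutation) without DJ-1+/+ replicate 3. The causes were not tested. Depth limits genes under 3 counts per library.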

Other observations

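Genes with a mean of at least 10 cpm were also ranked by likeness to Hba-a2, after its values were seen. None of the 3 most like and 3 least like lay on chromosome 11. That chromosome holds only 1314 of the 18127 genes tested, so nothing is read from this. The most like were Ttc17 on chromosome 2 (r = 0.89), Tvp23a on chromosome 16 (r = 0.89) and Eipr1 on chromosome 12 (r = 0.88). Their counts ran only from 46 to 68, from 37 to 58 and from 80 to 107, against 5 to 97 for Hba-a2. The least like were Etfb (r = -0.91), Taf10 (r = -0.91) and Polr2l (r = -0.89), all on chromosome 7. Their counts ran from 64 to 98, from 79 to 117 and from 35 to 68. The share of chromosome 7 among the genes tested was not computed, so nothing is read from their shared chromosome. These values of r over 9 libraries, picked from 12741 genes, are a description.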
